A study of Homo sapiens with 24 samples.

Results

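Metallothioneins and the genes that set zinc export were followed in MDA686TU cells, an established human head and neck cancer line. The set was fixed by gene symbol: the metallothioneins MT1E, MT1F, MT1G, MT1M, MT1X and MT2A, the transcription factor MTF1, and the zinc exporter SLC30A1. All 8 were found in the raw count table by Ensembl identifier, among 60617 genes. Each gene was compared across 24 RNA-seq libraries in 4 groups of 6, all treated for 24 h: a control without treatment, EGCG at 40 µM, resveratrol at 15 µM, and the combination of EGCG at 40 µM with resveratrol at 15 µM. EGCG is the main catechin of green tea and resveratrol is a polyphenol of grapes. By the study's methods EGCG was dissolved in water and resveratrol came from a stock in DMSO. Whether the control cells received DMSO is not given in the sources used here, so that in the groups with resveratrol the solvent cannot be told apart from the agent. The 6 libraries of a group are labelled as replicates of a single line, and nothing in the labels says that they came from separate cultures, so p-values measure the spread between these libraries, which may be technical.

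Metallothioneins are small, cysteine-rich proteins that bind zinc, copper and cadmium in the cytosol and also take up reactive oxygen species. Free zinc activates MTF1, which binds metal response elements in the promoters of metallothionein genes and of SLC30A1, so that a cell with more free zinc stores more of it and exports more of it. SLC30A1, also named ZnT1, sits in the plasma membrane and moves zinc out of the cell. Metallothionein genes are also induced by glucocorticoids and by oxidative stress, and MT2A is the member that most epithelial cells express most strongly.

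Every library had the markers of squamous epithelium, with KRT5 between 34339 and 49383 normalized counts and TP63 between 3286 and 3859. The defining leukocyte marker PTPRC and the defining endothelial marker PECAM1 did not exceed 1.29 normalized counts in any library. Of the fibroblast markers, DCN did not exceed 1.05, while COL1A1 ran from 875 to 1718 and COL1A2 from 12.2 to 28.9. The summed squamous markers (KRT5, KRT14, KRT17, TP63, CDH1 and EPCAM) ranged from 107206 to 113390 in control, 101286 to 116418 with EGCG, 86865 to 93124 with resveratrol and 86507 to 93871 with the combination. The sum is set mostly by the abundant keratins. KRT5, KRT14 and KRT17 were called lower with resveratrol (log2 difference from control -0.29, -0.29 and -0.41) and with the combination (-0.37, -0.34 and -0.36) and not called with EGCG (-0.03, -0.05 and -0.04). CDH1 was called higher in all 3 treated groups (0.12, 0.29 and 0.43), TP63 was called higher with the combination (0.09), and EPCAM was not called. The part of these shifts in the results was not tested. The 3 fibroblast markers summed to 1112 to 1344 in control, 888 to 1108 with EGCG, 1309 to 1551 with resveratrol and 1518 to 1743 with the combination, nearly all of it COL1A1, and the 2 endothelial markers to 2.26 to 19.0 over all libraries. COL1A1 was called lower with EGCG (-0.27) and higher with resveratrol (0.29) and the combination (0.48). Its interaction of EGCG and resveratrol was also called (0.46, edgeR adjusted p = 0.000787). The part of these differences in the results was not tested. Library totals ran from 7034872 to 11735574 counts. The share of mitochondrial counts was 0.249% to 0.326% in replicates 1 to 3 of every group and 0.448% to 0.775% in replicates 4 to 6, a split found in the data and not given in the labels, so the differences of the members from control are also given within each set of 3. In bulk RNA, a lower level in every cell and fewer cells that express a gene cannot be told apart.

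The 6 metallothionein genes lie within 75.6 kb of chromosome 16 in GRCh38 (GENCODE v44). In order along the chromosome they are MT2A at chr16:56608584-56609497, MT1E at chr16:56625475-56627112, MT1M at chr16:56632659-56633981, MT1F at chr16:56657731-56660698, MT1G at chr16:56666730-56668065 and MT1X at chr16:56682470-56684196, all on the plus strand except MT1G. MTF1 (chr1:37809574-37859592) and SLC30A1 (chr1:211571568-211579161) lie on the minus strand of chromosome 1. The promoters bear on a set known for shared control by MTF1, so the 250 bases before the start are shown for MT2A, MT1X and SLC30A1 as RefSeq gives them on GRCh38.p14, each read 5′ to 3′ on the strand of its gene. Capitals mark matches on either strand to the core of the metal response element, searched as TGCACNC and TGCGCNC. MT2A is the window chr16:56608334-56608583 (plus strand), MT1X is chr16:56682220-56682469 (plus strand) and SLC30A1 is chr1:211579162-211579411 (minus strand).
MT2A: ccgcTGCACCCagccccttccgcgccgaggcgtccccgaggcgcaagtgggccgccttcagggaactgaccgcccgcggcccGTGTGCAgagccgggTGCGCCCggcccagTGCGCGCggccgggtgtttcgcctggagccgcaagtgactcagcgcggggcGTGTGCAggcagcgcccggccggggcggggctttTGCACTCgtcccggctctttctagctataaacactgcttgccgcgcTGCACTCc
MT1X: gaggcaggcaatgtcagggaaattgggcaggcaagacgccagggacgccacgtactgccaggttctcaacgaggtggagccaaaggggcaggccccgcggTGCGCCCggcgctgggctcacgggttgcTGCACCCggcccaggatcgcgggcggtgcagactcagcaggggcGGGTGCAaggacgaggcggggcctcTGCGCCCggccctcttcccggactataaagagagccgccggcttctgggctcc
SLC30A1: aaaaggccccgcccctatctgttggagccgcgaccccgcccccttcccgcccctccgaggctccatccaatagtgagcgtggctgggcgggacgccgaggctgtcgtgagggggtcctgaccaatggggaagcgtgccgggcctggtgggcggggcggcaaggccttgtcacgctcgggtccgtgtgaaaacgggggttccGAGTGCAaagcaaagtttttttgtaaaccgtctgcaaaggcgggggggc
The MT2A window held 7 matches, the MT1X window 4, the SLC30A1 window 1, and the window of MTF1 itself 0. Among the windows of 27305 RefSeq promoters, 24.7% held at least 1 match and 1.56% held 3 or more. The core of the antioxidant response element, searched as TGACNNNGC, matched 1 time each in MT2A, MT1X and SLC30A1 and in 11.0% of all windows. The letters TATAAA stood 1 time in MT2A and 1 time in MT1X, against 11.1% of all windows. With the 50 bases after the start included, the metal response element core matched 8 times in MT2A, 4 in MT1X, 2 in SLC30A1 and 0 in MTF1. Of all promoters extended in this way, 29.3% held at least 1 match and 2.27% held 3 or more. Matches describe letters, not bound sites. The promoter table matched 4 of the 8 members; MT1E, MT1F, MT1G and MT1M were not matched.

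Judged per length, MT2A was the most abundant member. Its FPKM, a level scaled to gene length and library size, averaged 362 ± 13.9 (SD, n = 6) in control, with MT1E at 108.5 ± 8.35, MT1X at 12.8 ± 0.99, SLC30A1 at 9.62 ± 0.49, MTF1 at 3.80 ± 0.22, MT1G at 2.78 ± 0.84 and MT1F at 2.03 ± 0.23. The deposited FPKM did not follow the lengths of the canonical transcripts, which are 425 bases for MT1F, 410 for MT1G and 7937 for MTF1. The order of the members below MT1E therefore depends on the length used. MT1M was too low to judge. It had 1 raw count in the 24 libraries, in EGCG replicate 1, and 0 in the other 23, it did not pass the filter on low counts, and 3 counts, the limit that a count of 0 allows, correspond to 0.256 to 0.426 counts per 1e6 counts (CPM). No statement on its direction can be made at this depth. The other 7 members had counts in all 24 libraries and were tested, but MT1F (group means of 19.3 to 33.5 raw counts) and MT1G (at most 18.5) rest on few reads, and their intervals are wide. Reads of 50 bases can match more than 1 gene. Of the windows of 50 bases in their annotated transcripts, 92.9% were found in no other gene for MT1E, 98.8% for MT1F, 83.6% for MT1G, 81.8% for MT1M, 81.3% for MT1X and 95.5% for MT2A. For MT1X most of the remainder, 15.0% of its windows, lay in the overlapping lncRNA ENSG00000259827 on the same strand, which had a mean normalized count of 0, and MT1G, the next gene, held 2.8%. How the counting treated reads that match several genes is not given in the sources used here, so small changes in MT1G are uncertain to that extent.

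**Figure D1:**
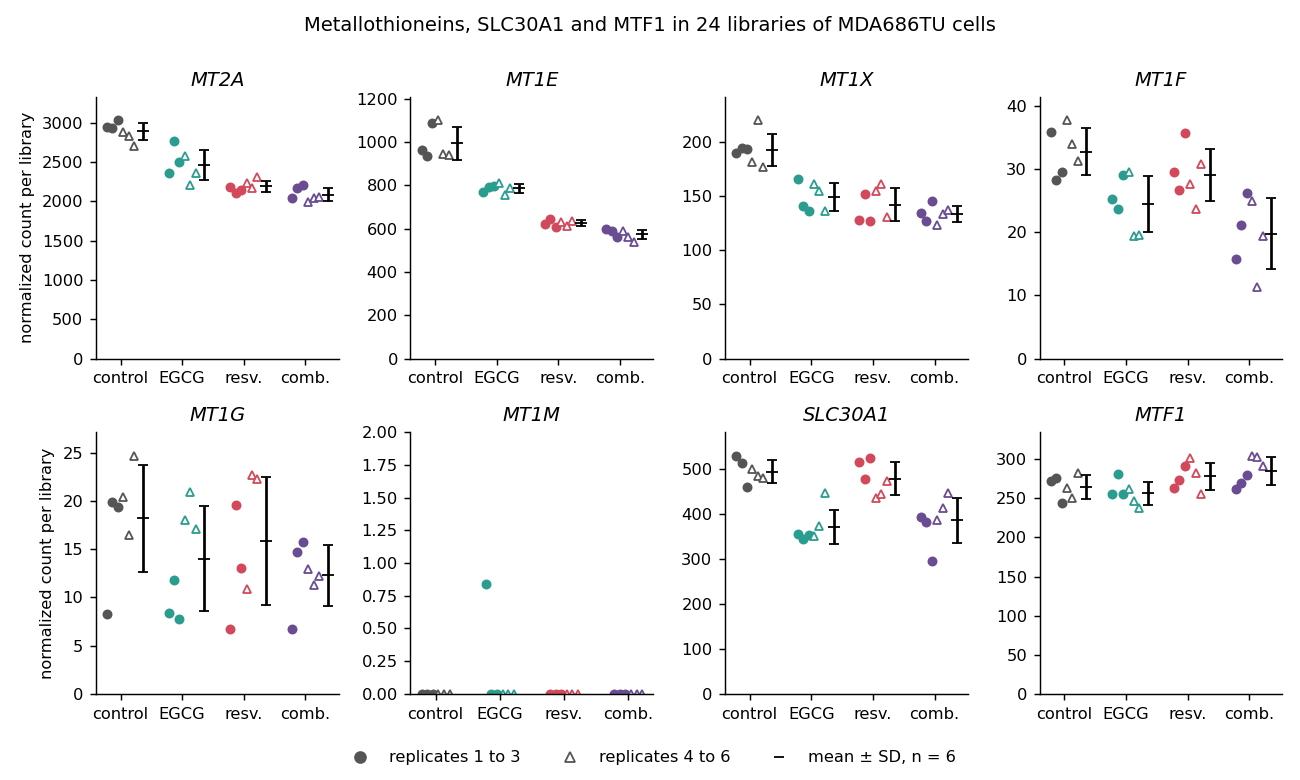
Normalized count (vertical axis, linear from 0) of each member in each of the 24 libraries, by group, with circles for replicates 1 to 3, triangles for replicates 4 to 6, and a bar for the mean ± SD of 6. MT2A, MT1E and MT1X are highest in control, SLC30A1 is low in the 2 groups with EGCG, the groups of MTF1 overlap, and MT1M (a single count) has no mean drawn.

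Summed metallothionein transcripts were lower than control in all 3 treated groups, which rested mainly on MT2A and MT1E. Summed over the 6 genes, normalized counts ranged from 3878 to 4355 in control (median 4128), 3159 to 3735 with EGCG (median 3403), 2931 to 3123 with resveratrol (median 2978) and 2742 to 2958 with the combination (median 2778). No treated library reached the lowest control library. Relative to control the mean sum decreased by 16.8% with EGCG, decreased by 27.2% with resveratrol and decreased by 31.6% with the combination, and no test was run on the sum. On the log2 scale these differences were -0.26, -0.51 and -0.54 in replicates 1 to 3 and -0.27, -0.405 and -0.56 in replicates 4 to 6. The resveratrol and combination groups overlapped, with a difference of -0.03 in replicates 1 to 3 and -0.15 in replicates 4 to 6. As a share of all raw counts it went from 0.0461% in control to 0.0334% with the combination.

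The question for EGCG alone was whether a single catechin dose shifts the set. It lowered 4 of the 7 tested members, the metallothioneins MT2A, MT1E and MT1X and the exporter SLC30A1, and raised none. Over all 15476 tested genes, 0.859% were called lower with EGCG and 0.905% higher. The members were chosen with earlier results of these data known, so no count of members called is independent of those results. A gene was called at an adjusted p below 0.1 together with a p below 0.05, from edgeR's quasi-likelihood test with Benjamini-Hochberg adjustment. With resveratrol alone 3 of 7 were called lower (MT2A, MT1E and MT1X) and 0 higher, against 28.0% of all tested genes called lower and 28.9% higher. With the combination 5 of 7 were called lower (MT2A, MT1E, MT1X, MT1F and SLC30A1) and 0 higher, against 29.9% lower and 29.9% higher. With scaling by library size alone the calls over all genes split 6147 higher to 2857 lower with resveratrol and 6041 to 3311 with the combination, in place of 4466 to 4341 and 4633 to 4625. The 3 comparisons share the same control libraries.

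**Figure D2:**
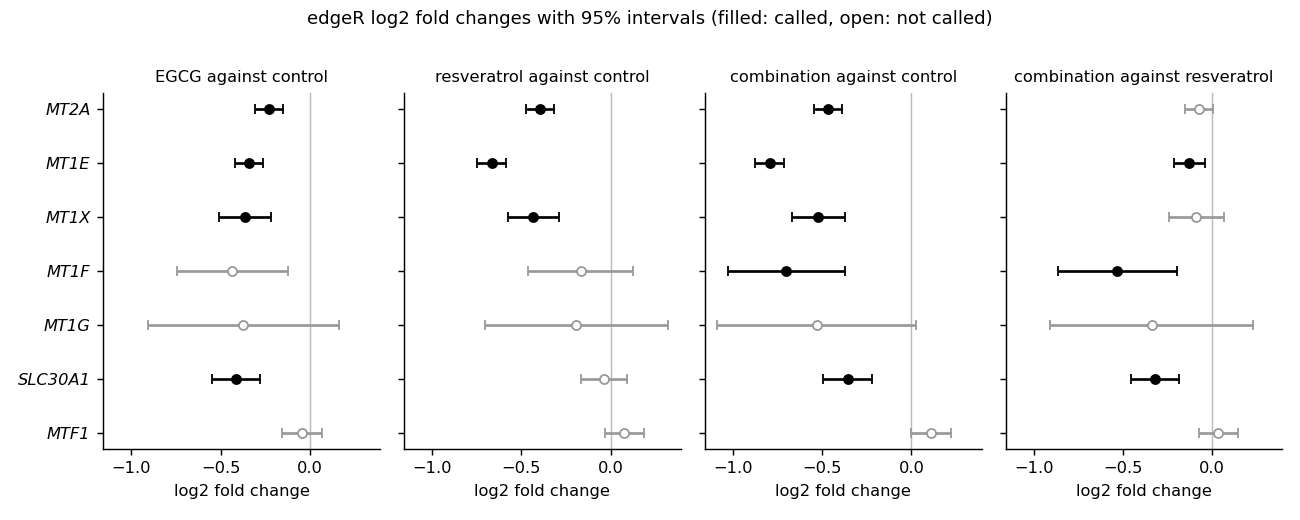
Log2 fold change (horizontal axis) of the 7 tested members in 4 comparisons, with 95% intervals from the edgeR fit, filled where called and open where not. MT1E lies farthest from 0 among the called members with resveratrol (-0.67) and the combination (-0.795), and SLC30A1 lies away from 0 in each panel except resveratrol against control.

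MT1E, a zinc-binding metallothionein of the MT1 group, showed the clearest order. Its normalized counts ran from 937 to 1101 in control (median 954.5), 758 to 809.6 with EGCG (median 792), 609 to 645 with resveratrol (median 625.5) and 537 to 598 with the combination (median 576.5). The 4 groups did not overlap, each standing wholly below the one before it. Of all tested genes, 0.795% lay wholly below control in the EGCG group, 15.9% in the resveratrol group and 16.5% in the combination group. For resveratrol below EGCG it was 13.7%, for the combination below EGCG 14.0% and for the combination below resveratrol 1.37%. On the log2 scale MT1E fell by 0.34 with EGCG (SE 0.0395, edgeR adjusted p = 3.05e-07), by 0.67 with resveratrol (SE 0.0401, edgeR adjusted p = 2.22e-16) and by 0.795 with the combination (SE 0.041, edgeR adjusted p = 1.91e-18). In the combination its level decreased by 42.4%. The exact permutation test of 6 against 6 libraries, two-sided, gave 0.00216 for each, the smallest p it can give. In replicates 1 to 3 alone the 3 log2 differences were -0.34, -0.66 and -0.77, and in replicates 4 to 6 alone -0.35, -0.67 and -0.82. MT1E also differed between resveratrol and EGCG (log2 difference -0.325, SE 0.041, edgeR adjusted p = 2.74e-08).

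MT2A supplied most of the metallothionein reads. Its normalized counts ran from 2703 to 3026 in control (median 2904), 2207 to 2763 with EGCG (median 2432), 2110 to 2302 with resveratrol (median 2175) and 1991 to 2206 with the combination (median 2046). Only the EGCG group overlapped control, through a single library, while resveratrol and the combination lay below it. The log2 difference from control was -0.23 with EGCG (SE 0.0388, edgeR adjusted p = 0.000347), -0.39 with resveratrol (SE 0.0389, edgeR adjusted p = 9.27e-11) and -0.47 with the combination (SE 0.0391, edgeR adjusted p = 1.14e-12). Within replicates 1 to 3 these were -0.22, -0.46 and -0.47, and within replicates 4 to 6 -0.24, -0.33 and -0.47. Resveratrol stood below EGCG for MT2A (log2 difference -0.16, SE 0.0391, edgeR adjusted p = 0.000642), but in replicates 4 to 6 alone the difference was -0.08 with an adjusted p of 0.142.

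MT1E lost more than MT2A, so the mixture of metallothionein transcripts shifted. MT2A made up 70.0% ± 1.13 (SD, n = 6) of the metallothionein counts in control, 71.6% ± 1.40 with EGCG, 72.9% ± 0.818 in resveratrol libraries and 73.8% ± 0.805 after both agents. MT1E made up 24.1% ± 1.25, 22.9% ± 0.973, 20.8% ± 0.530 and 20.3% ± 0.978 in the same order. The share of MT1E in the 6 control libraries (22.8% to 26.1%) did not overlap that with resveratrol (20.4% to 21.8%) or the combination (19.1% to 21.5%). The share of MT1X was 4.67% ± 0.396 in control and 4.73% ± 0.252 with the combination.

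MT1X ran from 177 to 219.6 normalized counts in control (median 191), 136 to 166 with EGCG (median 148), 127 to 161 with resveratrol (median 141) and 123.5 to 145.5 with the combination (median 134). All 3 treated groups lay below control and overlapped each other. Its log2 difference from control was -0.36 with EGCG (SE 0.0709, edgeR adjusted p = 0.00263), -0.43 with resveratrol (SE 0.0708, edgeR adjusted p = 3.16e-06) and -0.52 with the combination (SE 0.0728, edgeR adjusted p = 1.48e-07). For EGCG the size was alike in the sets of 3 libraries, -0.37 and -0.35, with adjusted p-values of 0.154 and 0.167, neither of them a call. With resveratrol it was -0.49 and -0.37 and with the combination -0.49 and -0.55, each of them a call.

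The 2 sparse metallothioneins gave less. MT1F ran from 28.3 to 37.7 normalized counts in control (median 32.7), 19.5 to 29.6 with EGCG (median 24.5), 23.7 to 35.8 with resveratrol (median 28.6) and 11.3 to 26.3 with the combination (median 20.2). The combination group alone did not overlap control. There the log2 difference was -0.70 (95% interval -1.03 to -0.37, edgeR adjusted p = 0.000346), with -0.54 and -0.87 in the sets of 3 libraries. With EGCG it was -0.435 (95% interval -0.75 to -0.125) at an edgeR adjusted p of 0.217 and an exact permutation p of 0.0108, and with resveratrol -0.17 (95% interval -0.46 to 0.13, edgeR adjusted p = 0.346). In replicates 1 to 3 and 4 to 6 in turn, MT1F differed from control by -0.26 and -0.62 with EGCG and by -0.03 and -0.32 with resveratrol, none of them a call.

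MT1G ran from 8.29 to 24.7 normalized counts in control (median 19.7), 7.77 to 21.0 with EGCG (median 14.5), 6.69 to 22.7 with resveratrol (median 16.4) and 6.77 to 15.8 with the combination (median 12.6), and every group overlapped every other. It was called in no comparison of the fit to all 24 libraries. The log2 difference of the combination from control was -0.53 with a 95% interval of -1.09 to 0.025 (edgeR adjusted p = 0.0987, exact permutation p = 0.0909). In replicates 4 to 6 alone it was -0.75 and called (adjusted p = 0.0442), in replicates 1 to 3 alone -0.29 and not called (adjusted p = 0.557). It was also called with a term for the 2 sets of replicates (-0.53, adjusted p = 0.0699), with the filter on low counts relaxed (-0.54, adjusted p = 0.0849) and with only these 2 groups in the fit (-0.51, adjusted p = 0.0688). Leaving out control replicate 1 gave -0.69 with an adjusted p of 0.026, leaving out combination replicate 3 gave -0.63 with an adjusted p of 0.0708, and leaving out resveratrol replicate 1 gave -0.53 with an adjusted p of 0.0794, each of them a call. With EGCG the interval reached from -0.91 to 0.16 and with resveratrol from -0.71 to 0.32, so changes within these ranges are not excluded. In the sets of 3 these differences were -0.76 and -0.11 with EGCG and -0.21 and -0.16 with resveratrol, none of them a call.

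SLC30A1, which carries zinc out of the cell, was lower in the 2 groups that received EGCG. Its normalized counts ran from 459.6 to 529.9 in control (median 492), 345 to 446 with EGCG (median 355.5), 436 to 525 with resveratrol (median 477) and 296 to 447.5 with the combination (median 390.1). The EGCG and combination groups lay wholly below control, and the resveratrol group overlapped it. With EGCG the log2 difference from control was -0.415 (SE 0.0668, edgeR adjusted p = 0.000157, exact permutation p = 0.00216), and with the combination -0.36 (SE 0.0668, edgeR adjusted p = 2.26e-05, exact permutation p = 0.00216). With resveratrol it was -0.04 (95% interval -0.17 to 0.09, edgeR adjusted p = 0.642) and, with scaling by library size alone, 0.05. A direct test placed resveratrol above EGCG by 0.38 (SE 0.0667, edgeR adjusted p = 1.27e-05). The combination did not pass the test against EGCG (log2 difference 0.06, 95% interval -0.08 to 0.20, edgeR adjusted p = 0.504), though without combination replicate 3 the difference was 0.13 with an adjusted p of 0.0678, a call. The sets of 3 libraries differed in size: with EGCG -0.50 and -0.33, with the combination -0.49 and -0.23, and with resveratrol 0.02 and -0.11, in replicates 1 to 3 and 4 to 6 in turn, and that gap was not tested. EGCG replicate 6, at 446, stood above the next EGCG library at 374, and without it the difference of EGCG from control was -0.47.

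**Figure D3:**
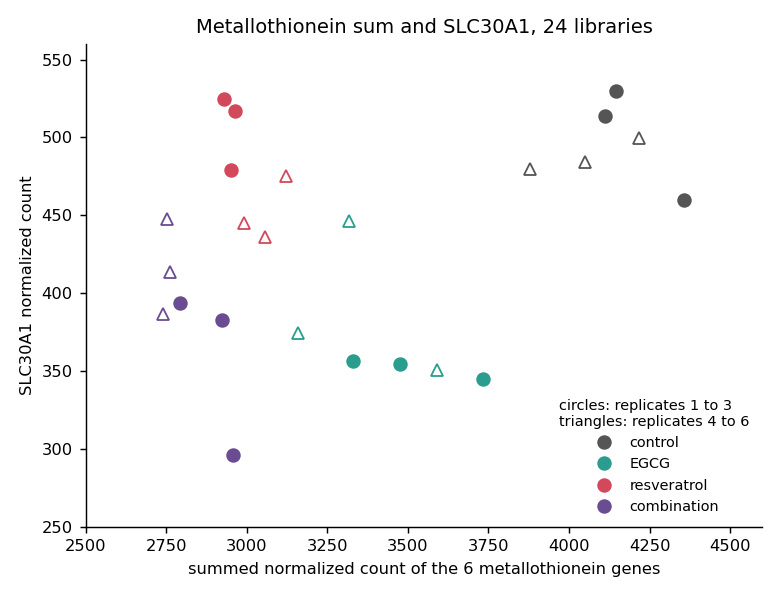
Summed normalized count of the 6 metallothionein genes (horizontal axis) against the SLC30A1 normalized count (vertical axis) in the 24 libraries, coloured by group. Both axes start above 0. Resveratrol libraries lie left of control at a like SLC30A1 level (436 to 525), EGCG libraries lie lower and less far left, and combination libraries lie at the left (2742 to 2958) with SLC30A1 between 296 and 447.5.

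MTF1, the zinc-sensing activator, was called against control in no group. It ran from 244 to 282 normalized counts in control (median 267.5), 237 to 281 with EGCG (median 255.5), 256 to 302 with resveratrol (median 278) and 262 to 304 with the combination (median 286), with overlap between all groups. The log2 difference was -0.045 with EGCG (95% interval -0.16 to 0.07), 0.08 with resveratrol (95% interval -0.03 to 0.19) and 0.11 with the combination (edgeR adjusted p = 0.0836, exact permutation p = 0.0628). In replicates 1 to 3 and 4 to 6 in turn, MTF1 differed from control by 0.004 and -0.10 with EGCG and by 0.08 and 0.08 with resveratrol, none of them a call. With the combination it was 0.05 (adjusted p = 0.675) and 0.17 (adjusted p = 0.0676), the latter a call. The pooled difference with the combination lay at the threshold for the unadjusted p and became a call without any of 10 libraries in turn (log2 difference 0.11 to 0.13): control replicates 2 and 6 (adjusted p = 0.0741 and 0.0504), EGCG replicates 1, 2, 4 and 6 (0.0473, 0.0397, 0.0457 and 0.0426), resveratrol replicates 4 and 6 (0.0794 and 0.0807) and combination replicates 1 and 2 (0.0424 and 0.0619). It was also a call with at least 10 counts in every library (0.14, adjusted p = 0.028) and with only these 2 groups in the fit (0.13, adjusted p = 0.0571). With scaling by library size alone, which moved the median of all genes by 0.09 with resveratrol and 0.08 with the combination, MTF1 was called higher in both, by 0.165 and 0.19.

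With EGCG added to resveratrol, MT1E, MT1F and SLC30A1 were lower than with resveratrol alone. Of these, only MT1E had been called lower with resveratrol. Between the combination and resveratrol these 3 of 7 members were called lower and 0 higher, against 3.86% of all tested genes called lower and 4.01% higher. SLC30A1 was lower in the combination by 0.32 on the log2 scale (SE 0.0667, edgeR adjusted p = 0.00231), with -0.51 in replicates 1 to 3 and -0.12 (adjusted p = 0.553) in replicates 4 to 6. MT1E was lower by 0.13 (SE 0.0424, edgeR adjusted p = 0.0718) and MT1F by 0.53 (SE 0.164, edgeR adjusted p = 0.0492), and neither was called in a set of 3 libraries alone. MT1E also lost its call without resveratrol replicate 1, 2, 4 or 6 or combination replicate 3, 5 or 6 (log2 difference -0.13 to -0.11, adjusted p 0.107 to 0.17). MT1F lost its call without resveratrol replicate 3 (-0.46, adjusted p = 0.139), combination replicate 1 (-0.48, adjusted p = 0.107) or combination replicate 5 (-0.42, adjusted p = 0.154), so 1 member was called without combination replicate 5. For MT2A the difference was -0.07 (95% interval -0.15 to 0.007) and for MT1X -0.09 (95% interval -0.24 to 0.07).

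Adding resveratrol to EGCG lowered 3 members further, MT1E by 0.45 (SE 0.0418, edgeR adjusted p = 1.79e-11), MT2A by 0.24 (SE 0.0393, edgeR adjusted p = 3.87e-06) and MT1X by 0.16 (SE 0.076, edgeR adjusted p = 0.0771), and 1 was higher, MTF1 by 0.155 (SE 0.0549, edgeR adjusted p = 0.0167). Of all tested genes 29.1% were called lower and 28.7% higher in that comparison. The call on MT1X was lost without control replicate 5, EGCG replicate 1, 2, 4 or 5, or combination replicate 1, 2, 4 or 5 (log2 difference -0.16 to -0.10, adjusted p 0.0977 to 0.282). That call was also lost with scaling by library size alone (-0.08, edgeR adjusted p = 0.363). The same held with the filter relaxed (-0.17, adjusted p = 0.134) and with at least 10 counts in every library (-0.13, adjusted p = 0.135). In replicates 1 to 3 and 4 to 6 alone MT1X was lower by 0.125 and 0.20, neither a call. MTF1 was 0.04 higher in replicates 1 to 3 (adjusted p = 0.717) and 0.27 higher in replicates 4 to 6 (adjusted p = 0.0054). Between the single agents, resveratrol had MT1E and MT2A lower and MTF1 and SLC30A1 higher than EGCG, 2 of 7 each way against 27.3% lower and 27.7% higher over all genes. MTF1 there was higher by 0.12 (edgeR adjusted p = 0.0599), not called without EGCG replicate 5 (0.11, adjusted p = 0.122), resveratrol replicate 3 (0.11, adjusted p = 0.126) or resveratrol replicate 4 (0.10, adjusted p = 0.154). Nor was it called with the filter relaxed (0.115, adjusted p = 0.192) or in replicates 1 to 3 alone (0.07, adjusted p = 0.521), but it was in replicates 4 to 6 alone (0.18, adjusted p = 0.0742). MT1F, 0.27 higher and not called, was called without EGCG replicate 4 (0.33, adjusted p = 0.0879) and with scaling by library size alone (0.35, adjusted p = 0.0597).

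Whether the combination differed from the sum of the log2 changes of its parts was asked with an interaction term. By edgeR 0 of the 7 members were called, against 0.265% of all tested genes, and DESeq2 also called 0. At an unadjusted p below 0.05 there were 3 by edgeR, MT1E, MT2A and MT1X, and 3 by DESeq2. The interaction was 0.21 for MT1E (SE 0.058, edgeR adjusted p = 0.163), 0.16 for MT2A (SE 0.0552, edgeR adjusted p = 0.411) and 0.27 for MT1X (SE 0.104, edgeR adjusted p = 0.464). In these 3 the positive sign means that the combination fell less far than the sum of both agents' separate changes. Over all genes 7.72% had an unadjusted p below 0.05.

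The rest of the metallothionein family had few reads. Of 15 other metallothionein genes and pseudogenes listed, 3 passed the filter on low counts, MT1L, MT1XP1 and MT2P1. With resveratrol MT2P1 (log2 difference -0.585, SE 0.147, edgeR adjusted p = 0.00104) and MT1XP1 (-0.585, SE 0.274, edgeR adjusted p = 0.0718) were called lower, with the combination MT2P1 alone (-0.33, SE 0.145, edgeR adjusted p = 0.0522), and with EGCG 0 of 3 (0 also at an unadjusted p below 0.05 and by DESeq2). MT2P1 and MT1XP1 are pseudogenes whose sequence resembles MT2A and MT1X: 2.0% of the 50-base windows of MT2A occur in MT2P1 and 2.1% of those of MT1X in MT1XP1. Single reads from these windows cannot be told apart from their own. No window of 100 bases of MT2A or MT1X occurred in either pseudogene, and how read pairs were counted is not given. Over all tested genes 28.0% were called lower with resveratrol and 29.9% with the combination. MT1L differed from control by -0.21 with EGCG, -0.20 in resveratrol libraries and -0.38 after both agents, none called.

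Among the other zinc exporters of the SLC30 family, 6 of 10 listed genes were tested. By edgeR 0 of them were called with EGCG (0 also at an unadjusted p below 0.05 and by DESeq2). Resveratrol raised 3 (SLC30A3, SLC30A4 and SLC30A6), and the combination raised the same 3 and lowered SLC30A7, where 28.9% of all tested genes were called higher with resveratrol, and 29.9% higher and 29.9% lower with the combination. SLC30A3 with resveratrol was 0.16 and not called in replicates 1 to 3 (adjusted p = 0.744) and 1.08 in replicates 4 to 6, and SLC30A7 with the combination was -0.295 in replicates 1 to 3 and -0.09 and not called in replicates 4 to 6 (adjusted p = 0.524). The list's median log2 difference was -0.03, 0.20 and 0.09 in these comparisons, where the median of all tested genes was 0.00 in each. SLC30A4, which loads zinc into intracellular vesicles, ran from 5.25 to 19.9 normalized counts in control (median 13.8), 8.23 to 21.5 with EGCG (median 13.2), 26.8 to 48.9 with resveratrol (median 39.4) and 35.1 to 45.1 with the combination (median 41.5). Both groups with resveratrol were higher than control, by 1.48 (SE 0.187, edgeR adjusted p = 2.73e-08) and 1.55 (SE 0.189, edgeR adjusted p = 8.83e-09) against control, with 1.80 and 1.89 in replicates 1 to 3 and 1.198 and 1.25 in replicates 4 to 6. SLC30A6, a Golgi exporter, was higher by 0.32 (SE 0.0506) and by 0.205 (SE 0.0517), the latter 0.15 and not called in replicates 1 to 3 (adjusted p = 0.122).

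Of the 14 SLC39 genes, the family of zinc importers, 11 were tested. EGCG raised 1 and lowered 0, resveratrol raised 2 (SLC39A8 and SLC39A14) and lowered 4 (SLC39A1, SLC39A4, SLC39A9 and SLC39A10), and the combination raised 5 (SLC39A7, SLC39A8, SLC39A11, SLC39A13 and SLC39A14) and lowered 3 (SLC39A4, SLC39A9 and SLC39A10). In either direction that is 1, 6 and 8 of 11, where 1.76%, 56.9% and 59.8% of all tested genes were called. DESeq2 called 1, 5 and 8. With resveratrol SLC39A9 was called in neither set of 3 (adjusted p = 0.111 and 0.266). SLC39A1 and SLC39A8 were not called there in replicates 4 to 6 (0.318 and 0.51). With the combination SLC39A8 was not called in replicates 1 to 3 (0.202), nor SLC39A9 and SLC39A11 in replicates 4 to 6 (0.122 and 0.145). The list's median log2 difference was 0.00, 0.02 and 0.005. SLC39A10, a plasma membrane importer, was the gene raised by EGCG. It ran from 474 to 552 normalized counts in control (median 500.5), 539.7 to 681 with EGCG (median 645), 304 to 354 with resveratrol (median 331.5) and 304 to 414 with the combination (median 383). EGCG was above control by 0.30 (SE 0.0562, edgeR adjusted p = 0.00152), and resveratrol and the combination were below it by 0.62 and 0.44 (SE 0.0602 and 0.0601, edgeR adjusted p = 7.01e-11 and 7.91e-08). The rise with EGCG was 0.29 in replicates 1 to 3, where it was not called (adjusted p = 0.142), and 0.32 in replicates 4 to 6. SLC39A14, an importer of zinc and iron, ran from 1406 to 1516 normalized counts in control and from 1612 to 1832 with the combination, higher by 0.22 (SE 0.0316, edgeR adjusted p = 1.73e-07).

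**Figure D4:**
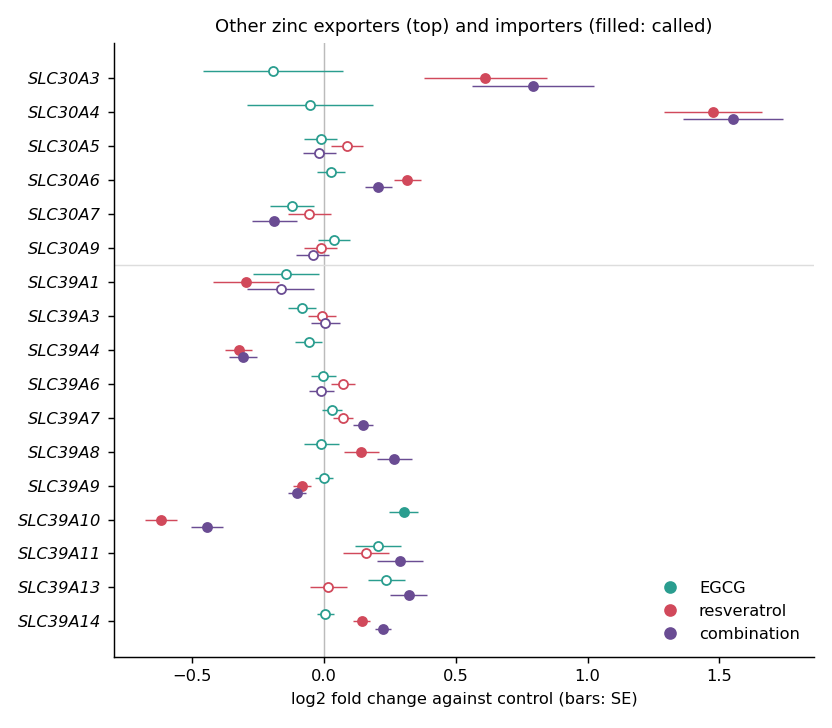
Log2 fold change against control (horizontal axis, bars are the SE) of the tested SLC30 exporters other than SLC30A1 and of the tested SLC39 importers, for EGCG, resveratrol and the combination, filled where called. SLC30A4 stands far to the right with resveratrol (1.48) and the combination (1.55), and SLC39A10 lies on opposite sides of 0 with EGCG (0.30) and resveratrol (-0.62).

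All 10 listed genes of copper handling were tested, since metallothioneins also bind copper. By edgeR 0 were called with EGCG, by DESeq2 also 0, and 2 had an unadjusted p below 0.05. Resveratrol raised 5 (ATP7A, CCS, SLC31A1, SLC31A2 and SOD1) and lowered 2 (COMMD1 and STEAP3), and the combination raised 4 (CCS, SLC31A1, SLC31A2 and SOD1) and lowered the same 2. By DESeq2 6 of the 10 were called with resveratrol and 6 with the combination. CCS, which hands copper to the superoxide dismutase SOD1, was higher by 0.43 (SE 0.0685, edgeR adjusted p = 2.01e-06) with resveratrol and by 0.45 (SE 0.0693, edgeR adjusted p = 1.04e-06) with the combination. SOD1 itself was higher by 0.13 and 0.10. The list's median log2 difference was 0.05 with EGCG, 0.06 with resveratrol and 0.08 after both agents, and these shares of calls stand against 1.76%, 56.9% and 59.8% of all tested genes called in either direction.

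Over the 24 libraries MT1E and MT2A moved together (Pearson r = 0.938 of log2 CPM), as did MT1E with MT1X (r = 0.796). After the group means were taken out these fell to 0.307 and -0.214, so the likeness lay mostly between groups. The gene most like MT1E, MT2A and MT1X among all tested genes was in each case TGFBI, which encodes a secreted matrix protein, with r = 0.979, 0.942 and 0.828. After the group means were taken out these were 0.236, 0.36 and -0.039. TGFBI averaged 15621 normalized counts in control and stood at 0.783, 0.635 and 0.56 times that level with EGCG, resveratrol and the combination. The next most alike were FKBP4 and MIR205HG for MT1E (r = 0.959 and 0.957), MT1E and H2AX for MT2A (r = 0.938 and 0.933), and MTSS2 and POP1 for MT1X (r = 0.826 and 0.825). Without the group means these were 0.439 and 0.294, 0.307 and 0.629, and 0.276 and 0.649. SLC30A1 had other partners, NR1D2 (r = 0.802), SELENOW (r = 0.79) and SELENOT (r = 0.776), the last 2 encoding selenoproteins. SELENOW stood at 0.331 times control with EGCG, 0.867 times with resveratrol and 0.319 times with the combination, and its deviations from the group means ran against those of SLC30A1 (r = -0.659). The deviations of NR1D2 and SELENOT ran with those of SLC30A1 (r = 0.709 and 0.696). For MTF1 the partners were USB1 (r = 0.84), TMEM25 (r = 0.763) and TIMP3 (r = 0.762), and for MT1F STAT6, KIF2C and PTMS (r = 0.757, 0.748 and 0.747). Without the group means these were 0.74, 0.642 and 0.615 for MTF1 and 0.699, 0.627 and 0.47 for MT1F. Much of this likeness therefore lay between libraries within groups. MT1G, with its few reads, reached 0.708 at most, with the gene ENSG00000271029, followed by DHX40P1 and DNHD1 (r = 0.666 and 0.665). Without the group means these were 0.709, 0.734 and 0.639. The points in all these correlations share the 4 groups and the libraries, so they describe a pattern.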

How the data were processed

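RNA-seq of MDA686TU cells was analysed in 4 groups of 6 libraries, grouped by the labels. The authors prepared stranded mRNA libraries, sequenced paired reads of 50 bases and, per their methods and processing notes, used bcl2fastq 2.17.1.14, Trimmomatic 0.36, FastQC 0.11.5, HISAT2 2.0.4 on GRCh38, SAMtools 1.3.1 and DESeq2 1.20.0. The counting program, annotation release, strand setting and treatment of reads matching several genes are not given in the sources used here. The authors deposited raw counts per gene without normalization. The deposited normalized counts, a signal per gene, equal the raw counts after division by a size factor, a constant within each library (0.778 to 1.336 over libraries), and were used for levels. The deposited FPKM values were used only to compare levels between genes. No replicates were pooled, and 60 pairs of replicates differed by more than sampling noise (chi-square per gene 1.26 to 6.8).

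The 15476 genes that passed filterByExpr were tested with edgeR 4.0.16 (R 4.3.3, limma 3.58.1): TMM, quasi-likelihood, all 24 libraries in 1 fit with group as the only term, Benjamini-Hochberg over all tested genes. At these library totals (7034872 to 11735574) counting error is small for MT2A and large for MT1F and MT1G, and floors cover counting error only. On simulated data for EGCG against control with 14899 genes, edgeR recovered 200 of 200 changed genes with 22 false calls and DESeq2 200 of 200 with 11. Only well counted genes were changed there, at a single spread, and the raised ones had a median recovered log2 change of 1.00. Recovery of changes as small as those of the members, or in genes as sparse as MT1F and MT1G, was not simulated. A member was too low to judge if it failed the filter or averaged under 10 raw counts in every group. Single members were also compared by a two-sided exact permutation test over 924 splits. Alternatives were DESeq2 1.42.0, other scalings and filters, a threshold of 0.05, the compared groups alone, a replicate block, a batch term, each set of 3 replicates alone, and each library left out.

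The same replicate numbers occur in all groups. Deviations of 36 same-numbered pairs correlated from -0.011 to 0.131 (median 0.049), with 2 above 0.1. The median was 0.028 for other numbers within the same set of replicates and -0.041 across the sets. By highest correlation 14 of 24 libraries matched their own number, so pairing by number is not excluded. The main fit did not pair libraries, and the replicate block was run as an alternative. Genes named are the members, the pathway lists, the cell type markers and, per tested member, the 3 genes with the highest correlation. The members and lists were chosen with earlier results of these data known. Annotation came from GENCODE v44, in which 60261 of 60617 identifiers matched.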

Additional observations from a re-analysis of the deposited data

Results flagged for a closer look

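In a group of 6 libraries, a library is listed here when its gap to the nearest other library takes up more of the group's range than Dixon's critical value for 6, which chance does in about 1 in 20 groups. Of the 8 members in 4 groups, 2 values qualified. SLC30A1 in EGCG replicate 6 stood at 446 normalized counts, the next EGCG library at 374, and the gap was 0.709 of the range. MT1M in EGCG replicate 1 stood at 0.841 normalized counts, a single read, with 0 in the other 5, so that the gap was 1.0 of the range.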

How the results depend on the processing

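The number of members called kept within 1.5 times its value under each alternative for EGCG, resveratrol and the combination against control and for resveratrol against EGCG. For the combination against control it still ran from 5 to 7: in replicates 4 to 6 alone and with only the compared groups in the fit, MT1G was called lower (-0.75 and -0.51) and MTF1 higher (0.17 and 0.13) as well. Combination against resveratrol fell from 3 calls to 1 when the filter was relaxed to genes with 1 count or more, to 1 in replicates 1 to 3 alone and to 0 in replicates 4 to 6 alone, and ran from 1 to 3 when each library was left out. Combination against EGCG fell from 4 to 2 in replicates 1 to 3 alone. With the replicate number as a block the interaction went from 0 to 1 call, MT1E at 0.21 (adjusted p = 0.087), MT1G was called lower in combination against control (-0.54, adjusted p = 0.0322), and MT1X lost its call in combination against EGCG (-0.15, adjusted p = 0.0926). No other call on a member changed with the block, and 14 of 24 libraries correlated best with their own number. The cause of these shifts was not tested. The sets of 3 hold fewer samples and also differ in mitochondrial share, and these cannot be told apart there. Of the member values under alternatives, 1605 kept direction and side of the threshold, 46 lost a call, 27 gained one and 23 changed sign. The sign changes, all without a call, were as follows. With library size alone SLC30A1 in resveratrol against control was 0.05 and MT1X in resveratrol against EGCG 0.01, and calls over all genes split 6147 higher to 2857 lower with resveratrol (4466 to 4341 with TMM) and 6041 to 3311 with the combination (4633 to 4625). In replicates 1 to 3 alone, MTF1 was 0.004 in EGCG against control and -0.029 in combination against resveratrol, SLC30A1 0.024 in resveratrol against control, MT1G 0.464 in combination against EGCG, and the interactions of MTF1 and SLC30A1 -0.033 and -0.012. In replicates 4 to 6 alone MT1G was -0.042 in resveratrol against EGCG, and the interactions of MT1F and MT1G were 0.073 and -0.481. With a library left out, MT1G in combination against EGCG ran from -0.285 to 0.05, its interaction from -0.122 to 0.243, and the interaction of MT1F from -0.21 to 0.012. With DESeq2, MT1X in combination against EGCG (adjusted p = 0.113) and MTF1 in resveratrol against EGCG (0.101) lost their calls.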
